A study of Mus musculus with 6 samples.

Results

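The Gadd45 genes, the sestrin genes and Ddit4 are stress-induced genes whose products slow growth. They were taken here as the 7 genes Gadd45a, Gadd45b, Gadd45g, Sesn1, Sesn2, Sesn3 and Ddit4, and every probe that the platform annotation gives to one of these symbols was read, which made 15 of 45281 probes. The genes were chosen by reading the same mean bead intensities and detection p-values, with the difference between the peptides already known, so their own levels and differences are given as a description and carry no test. Of the 7 genes, 6 had a probe that was detected, and these 6 genes held 10 of the 12191 probes with 1 gene symbol that passed the detection filter.

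Bone marrow-derived macrophages of wild-type c57Bl6/J male mice aged 10 weeks were kept for 12 h with 5 µM RI-BPI or with 5 µM control peptide, and total RNA of each was read on 3 Illumina bead arrays. RI-BPI is a retro-inverso peptide designed to hold the repressor Bcl6 away from its SMRT and NCoR corepressors. The sequence of the control peptide and an untreated culture were not analysed here. Each set of 3 arrays is described in the labels as technical replicates, with no separate cultures or animals named, so every SD, standard error and p-value below measures the spread between arrays, and the spread between cultures is not known.

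GADD45 proteins are small acidic proteins that bind and activate the kinase MEKK4, which feeds the p38 and JNK kinases, and that also bind CDK1, p21 and PCNA. Sestrins bind the GATOR2 complex, which releases GATOR1 to switch off the Rag GTPases and with them the growth kinase mTORC1, and SESN2 is known as a leucine sensor. DDIT4, also called REDD1, lowers mTORC1 activity through the TSC1 and TSC2 complex. Textbook inducers of these genes include p53 for Gadd45a, Sesn1 and Sesn2, ATF4 for Sesn2 and Ddit4, NF-kB for Gadd45b, FoxO factors for Sesn3, and hypoxia and glucocorticoids for Ddit4.

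The 250 bases before the RefSeq start of the 5 genes with the largest differences are shown because these are the regions in which promoter elements shared or not shared by the members can be read. They come from RefSeq on GRCm38.p6, run 5′ to 3′ along the gene's own strand, and capitals mark the octamer ATTTGCAT, CCAAT boxes, the E-box CACGTG, the TATA box TATAAA and the ATF4 and C/EBP composite element TGATGNAA on either strand. Sesn1 has windows at both of its listed starts.
Gadd45a, chr6:67037408-67037657, minus strand: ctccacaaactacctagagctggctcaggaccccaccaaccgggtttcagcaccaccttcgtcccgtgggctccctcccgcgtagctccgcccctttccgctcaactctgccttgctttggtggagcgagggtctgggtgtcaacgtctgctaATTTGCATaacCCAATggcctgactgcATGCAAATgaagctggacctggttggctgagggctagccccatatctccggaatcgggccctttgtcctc
Gadd45b, chr10:80929841-80930090, plus strand: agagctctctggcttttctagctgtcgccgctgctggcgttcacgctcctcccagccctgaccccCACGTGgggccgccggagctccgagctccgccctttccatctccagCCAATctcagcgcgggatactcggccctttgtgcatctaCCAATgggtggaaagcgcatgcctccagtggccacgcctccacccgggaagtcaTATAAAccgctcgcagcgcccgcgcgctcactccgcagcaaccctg
Gadd45g, chr13:51846425-51846674, plus strand: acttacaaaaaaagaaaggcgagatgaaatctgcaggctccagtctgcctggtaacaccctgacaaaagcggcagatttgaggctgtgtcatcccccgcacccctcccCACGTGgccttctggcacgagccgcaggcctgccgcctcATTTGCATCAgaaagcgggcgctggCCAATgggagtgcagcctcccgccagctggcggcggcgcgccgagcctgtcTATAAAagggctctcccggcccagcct
Ddit4, chr10:59951771-59952020, minus strand: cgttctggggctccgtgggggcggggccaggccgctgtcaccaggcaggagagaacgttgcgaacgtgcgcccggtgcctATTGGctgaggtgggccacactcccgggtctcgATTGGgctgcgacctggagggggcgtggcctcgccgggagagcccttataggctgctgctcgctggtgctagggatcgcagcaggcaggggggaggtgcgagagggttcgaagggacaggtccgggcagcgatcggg
Sesn1, upstream start, chr10:41810324-41810573, plus strand: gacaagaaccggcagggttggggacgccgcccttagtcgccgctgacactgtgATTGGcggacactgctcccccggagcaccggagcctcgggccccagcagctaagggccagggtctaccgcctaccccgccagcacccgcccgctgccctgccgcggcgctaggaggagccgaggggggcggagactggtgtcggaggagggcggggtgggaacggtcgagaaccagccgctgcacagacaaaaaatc
Sesn1, downstream start, chr10:41887189-41887438, plus strand: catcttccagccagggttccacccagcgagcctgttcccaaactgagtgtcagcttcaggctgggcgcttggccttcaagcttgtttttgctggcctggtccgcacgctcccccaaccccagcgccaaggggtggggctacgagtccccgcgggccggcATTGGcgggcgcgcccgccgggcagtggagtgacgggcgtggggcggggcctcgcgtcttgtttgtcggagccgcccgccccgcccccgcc

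All 7 genes had a window, 8 windows with both of Sesn1, and a CCAAT box stood in 8 of the 8, against 33.8% of all 32851 windows, each likewise the 250 bases before a start. The octamer, a motif added after these windows had been read, was matched in the windows of Gadd45a, Gadd45g and Sesn3 and in 1.6% of all windows. In Gadd45a it occurred at both -97 and -70, counted from the start, on either side of the CCAAT box at -86. In Gadd45g the octamer at -103 shares bases with the match to the ATF4 and C/EBP composite element at -101, the only one among the 8 windows, and that element was matched in 3.45% of all windows. E-boxes were matched in Gadd45b at -185 and Gadd45g at -142 (6.02% of all windows), and TATA boxes at -46 and -27 of the same 2 genes (12.4%). The GC box GGGCGG was matched in 7 of the 8 windows and in 32.7% of all. No window of the 8 matched the cyclic AMP response element TGACGTCA, the AP-1 site TGANTCA, the first 9 bases of an NF-kB site, GGGANNTTC, the STAT and Bcl6 palindrome TTCNNNGAA, the FoxO site GTAAACA, the heat shock element core TTCNNGAA or the glucocorticoid receptor half-site AGAACA. Those motifs were matched in 1.55%, 6.75%, 3.23%, 7.02%, 3.17%, 7.17% and 16.1% of all windows in that order. These are letter matches in short windows and say nothing about binding.

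Across the 7 genes, the 3 Gadd45 genes, Ddit4 and Sesn2 were higher with RI-BPI, Sesn1 was lower, and Sesn3 was not detected. On the normalized log2 scale, the differences of the used probes ran from 3.50 for Gadd45a to -2.42 for Sesn1. By a change of at least 1.5-fold, 5 member genes were higher (14.8% of all 8205 measured genes were) and 1 was lower (15.2%). The fit over all genes called 5 members higher and 1 lower, beside 30.7% and 30.6% of all genes, and nothing is read from this because the members were proposed from the same contrast. The control and RI-BPI arrays did not overlap at any of the 10 detected member probes, as at 63.8% of the 12191 probes. By probe, 8 of the 10 were at least 1.5-fold higher (13.6% of probes) and the 2 detected Sesn1 probes at least 1.5-fold lower (15.5%). In bulk RNA a change in the level per cell and a change in the share of cells that carry the transcript cannot be told apart.

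**Figure D1:**
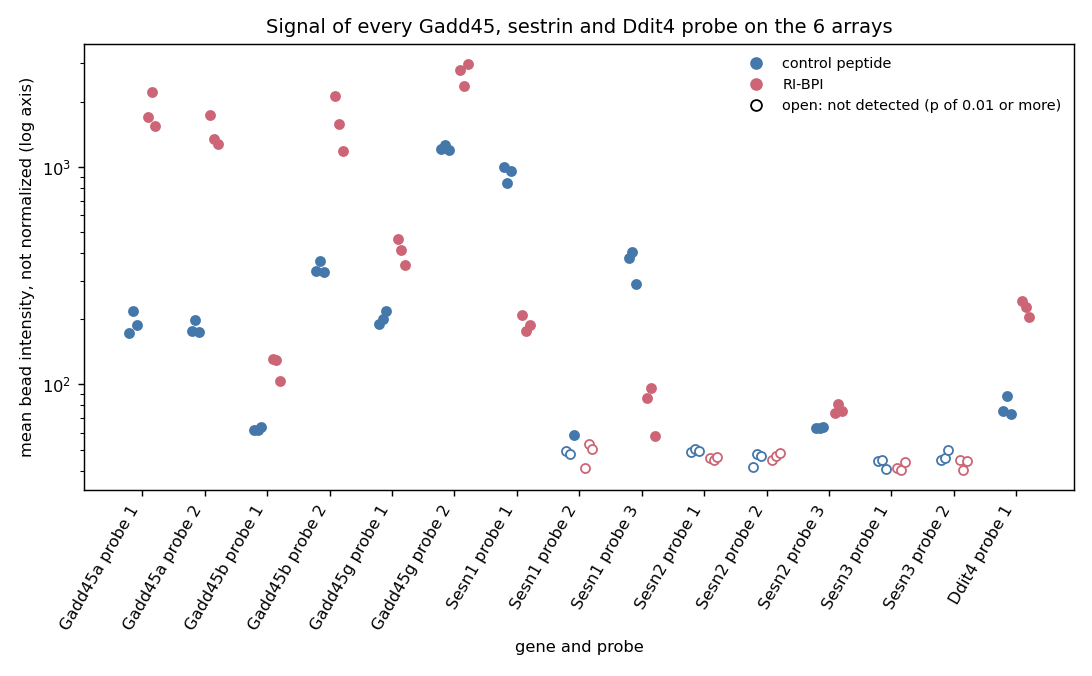
Mean bead intensity of all 15 probes on each array, not normalized, on a log axis; blue points are the 3 control arrays, red points the 3 RI-BPI arrays, and open points are arrays on which the probe was not detected. Red lies above blue for Gadd45a, Gadd45b, Gadd45g, Ddit4 and probe 3 of Sesn2, and below it for probes 1 and 3 of Sesn1. Red also lies slightly below blue at probe 1 of Sesn2 and probe 2 of Sesn3, which were detected on no array. Levels are not comparable between probes.

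Gadd45a, the founding member of the family and a classical growth arrest and DNA damage gene, differed most. At its probe 1 (ILMN_2742152) the mean bead intensity was 172.2, 218.4 and 187.4 on the control arrays and 1691, 2213 and 1542 on the RI-BPI arrays. Every RI-BPI array was thus far above every control array, and the array pair with the smallest gap still differed by 3.13 on the normalized log2 scale. The difference of the group means was 3.50 ± 0.14 (SE, n = 3 arrays per peptide), an 11.3-fold higher level, and it ranked 12 among the increases of 8205 genes. Probe 2 (ILMN_2947568) read 175.5, 198.2 and 174.8 with control and 1725, 1343 and 1277 with RI-BPI. It gave 3.25 ± 0.11, or 9.54-fold, so both probes of the gene had the same direction and lay within 0.24 of each other. The array that was highest with RI-BPI was replicate 2 at probe 1 and replicate 1 at probe 2, so the highest array was not the same at both.

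Gadd45b, known as MyD118 for its induction in differentiating myeloid cells, was next among the family. Its probe 2 (ILMN_2900653) read 333.1, 368.8 and 327.9 with control peptide and 2120, 1572 and 1190 with RI-BPI. All RI-BPI arrays lay above all control arrays, but the RI-BPI arrays were spread more widely, with a coefficient of variation of 28.7% against 6.49% in control. The difference was 2.34 ± 0.14, a 5.06-fold higher level, at rank 36 of the increases. The dimmer probe 1 (ILMN_1246065) read 61.4, 61.5 and 63.8 with control and 130.4, 129.0 and 103.6 with RI-BPI. Its difference was smaller, 1.55 ± 0.12 or 2.93-fold, and its control values stood little above the array medians of 45.8 to 47.4. At both probes RI-BPI replicate 3 was the lowest of its group.

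Gadd45g, a cytokine-induced member of the family, had the smallest difference of the 3 and the closest match between its probes. Its probe 2 (ILMN_2903945) read 1206, 1268 and 1193 with control and 2781, 2354 and 2968 with RI-BPI. The RI-BPI arrays were all higher, by 1.18 ± 0.12 on the log2 scale, which is 2.27-fold, at rank 264 of the increases. Probe 1 (ILMN_2744890) read 189.2, 199.2 and 217.6 with control and 466.3, 415.8 and 355.7 with RI-BPI. It gave 1.21 ± 0.12, only 0.03 away from probe 2. RI-BPI replicate 3 was the highest of its group at probe 2 and the lowest at probe 1.

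Ddit4, the mTORC1 inhibitor REDD1, had a single probe (ILMN_2993109). It read 75.4, 88.7 and 73.1 with control and 242.5, 226.6 and 204.7 with RI-BPI. The groups were far apart and the RI-BPI arrays were close together, with log2 SDs of 0.05 with RI-BPI and 0.18 with control. The difference was 2.07 ± 0.12, or 4.21-fold, at rank 58 of the increases. The ratio of the deposited signals themselves was 2.84, and without background correction the log2 difference was 1.59.

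The sestrin genes did not share a direction: Sesn1 was lower with RI-BPI, Sesn2 slightly higher and Sesn3 undetected. Sesn1 is also known as PA26, a p53-induced gene. Its probe 1 (ILMN_2654074) read 995.6, 843.3 and 960.6 with control and 208.5, 176.4 and 188.3 with RI-BPI. No RI-BPI array came near a control array, and both groups were tight, with coefficients of variation of 8.55% and 8.49%. The difference was -2.42 ± 0.12, a 5.35-fold lower level, and it ranked 12 among the decreases. Probe 3 (ILMN_3136744) read 379.8, 404.4 and 289.6 with control and 86.8, 95.8 and 58.1 with RI-BPI. It gave -2.67 ± 0.21, and its larger error came with RI-BPI replicate 3, where the signal was close to background. Without that array the difference at probe 3 was -2.30. Probe 2 (ILMN_3059476) was near background, at 48.0 to 58.4 with control and 41.3 to 52.9 with RI-BPI, and was detected on 1 control array only, so it gives no difference. The platform annotation assigns all 3 probes to 1 transcript accession, and where on the gene they lie was not analysed here.

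Sesn2, the leucine-binding sestrin, had its only detected signal at probe 3 (ILMN_2948945). It read 63.0, 63.0 and 63.9 with control and 73.7, 80.8 and 75.7 with RI-BPI. All RI-BPI arrays were higher than all control arrays, by a small amount at a dim level. The difference was 0.59 ± 0.11, or 1.51-fold, at rank 1186 of the increases, and this value depended on the background. The deposited signals differed by a ratio of 1.21, and the log2 difference was 0.35 without background correction, 0.37 in the authors' normalized table and 0.33 with a larger offset. Its direction did not change in any of the 14 alternatives. The other Sesn2 probes (ILMN_1219984 and ILMN_1229465) read 41.5 to 50.2 on all 6 arrays and were not detected on any. At ILMN_1219984 the RI-BPI arrays, at 44.8 to 46.2, lay below the control arrays, at 48.9 to 50.2.

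Sesn3, a FoxO-induced sestrin, was not detected. Its probes ILMN_2564767 and ILMN_2622997 read 40.6 to 49.7 with control and 40.5 to 44.8 with RI-BPI, near the array medians of 45.8 to 47.4, and no detection p-value was under 0.01. A level below the detection of these probes is not shown to be absent.

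**Figure D2:**
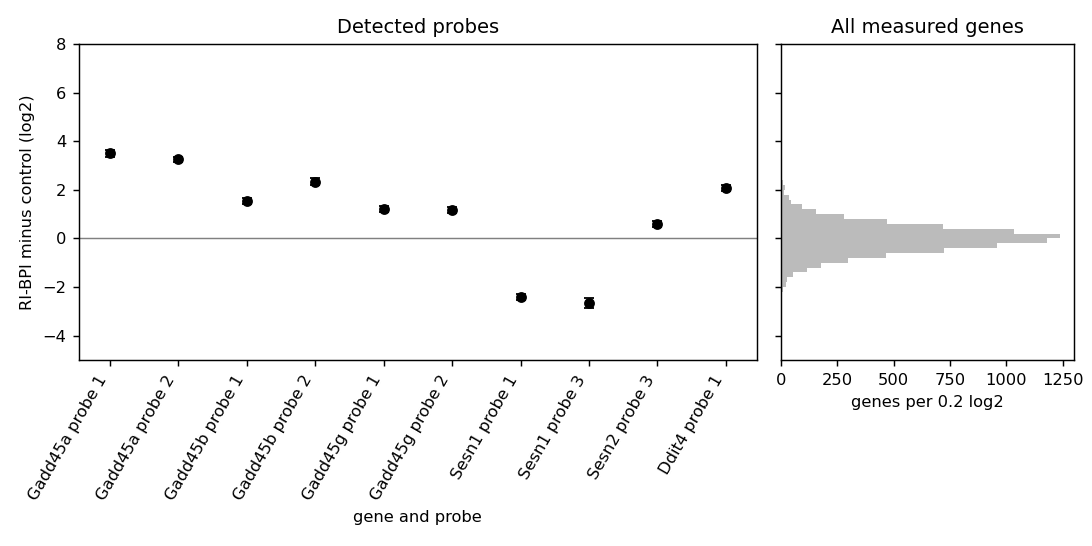
Left, the difference RI-BPI minus control on the log2 scale for the 10 detected member probes, with bars for the standard error of the fit (n = 3 arrays per peptide); right, the same difference for all 8205 measured genes as a histogram. The Gadd45a probes lie at 3.50 and 3.25, the Sesn1 probes at -2.42 and -2.67, and the probe of Sesn2 at 0.59.

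A member probe was read from 26 to 71 beads per array, and at the detected probes the standard error of the bead intensities was between 3.84% and 11.3% of the signal. The spread between arrays was above the deposited bead error at some probes and below it at others. At the used probe of Gadd45a the coefficient of variation between arrays was 12.2% with control and 19.4% with RI-BPI, and the bead errors ran from 7.01% to 11.3%. At the used probe of Gadd45b the arrays varied by 28.7% with RI-BPI against bead errors of 4.82% to 10.1%, and at that of Sesn2 by 0.824% with control against 3.84% to 6.23%.

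For each member gene, the 2 genes with the closest pattern were found by the root mean square distance between their log2 values over the 6 arrays, each taken from its own control mean. Nearest to Gadd45a were Dnmt3l, a cofactor of DNA methyltransferases, with a distance of 0.25 and a difference of 3.35, and the collagenase gene Mmp13, also at 0.25, with 3.50. Those distances were about the size of the spread of Gadd45a between arrays, an SD of 0.24. Nearest to Gadd45b were Csf1, the macrophage growth factor, at 0.15, which was undetected in control and at least 4.23-fold higher, and Chac1, a glutathione-degrading enzyme, at 0.18. Gadd45g was closest to the arrestin-like gene Arrdc4, at 0.03, and to the histone gene H4c3, at 0.04, which was undetected in control and at least 1.83-fold higher. Ddit4 was closest to Eno2, the neuronal enolase of glycolysis, at 0.08, and to the thioredoxin reductase gene Txnrd3, at 0.11. Nearest to Sesn1 were the solute carrier gene Slc46a3, at 0.10 with a difference of -2.39, and the mannose receptor gene Mrc1, at 0.16 with -2.34. Sesn2 lay nearest to Parl, a mitochondrial rhomboid protease, and to Gmeb2, both at 0.03. With only 2 conditions the distance mostly measures an equal size of change.

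The partners and regulators of these proteins were then read in the same fit, from 7 lists of genes known around them, members left out. Together the lists held 123 measured genes, each counted once, of which 63 rose and 26 fell and 34 had no call, so that 72.4% were called against 61.3% of all genes. The median of the 123 differences was 0.29 on the log2 scale, beside 0.008 over all genes. The lists were drawn up with earlier results of these data known, so nothing is read from these shares or this median. Calls are at an adjusted p under 0.05 (limma, two-sided, Benjamini-Hochberg over 8205 genes), and errors are standard errors with n = 3 arrays per peptide.

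The list of binding partners of GADD45, the kinases that they feed and phosphatases of those kinases moved both ways. Map3k4, the gene of MEKK4, was not among its measured genes. Among 12 measured genes of this list, 5 rose and 4 fell, and the other 3 were not called (75% called). Their median difference was 0.09. Cdkn1a, the gene of the cell cycle inhibitor p21, read 2721, 2809 and 2503 with control and 6170, 5805 and 5902 with RI-BPI, and rose by 1.21 ± 0.10 (adjusted p = 7.15e-09). Its other detected probes gave 0.84 and 1.00. Dusp10, a phosphatase of p38 and JNK, rose by 1.16 ± 0.13 (adjusted p = 1.97e-07), from a level detected on 2 of 3 control arrays. Another Dusp10 probe gave 0.85, and at an offset of 50 the difference at the used probe was 0.61. Cdk1, the mitotic kinase that GADD45A binds, read 272.2, 300.2 and 256.0 with control and 93.6, 88.7 and 84.9 with RI-BPI, and fell by 1.92 ± 0.11 (adjusted p = 1.22e-11). Mapkapk2, the kinase directly below p38, fell by 0.81 ± 0.12 (adjusted p = 5.81e-06). The other genes of this list that follow were named after their values were seen. Mapk14, the gene of p38 alpha, fell by 0.81 ± 0.11, Mapk9 (JNK2) fell by 0.67 ± 0.11, and Mapk8 (JNK1) rose by 0.46 ± 0.13. Pcna, another partner of GADD45 proteins, was not called, at 0.03 ± 0.13. With median centring in place of quantile normalization 3 members of the list rose rather than 5.

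In the route from sestrins through the GATOR complexes to the Rag GTPases, 9 of 21 measured genes rose and 9 fell, leaving 3 without a call (85.7% called). The median difference was -0.18. Seh1l, a subunit shared by GATOR2 and the nuclear pore, rose by 1.11 ± 0.11 (adjusted p = 6.29e-08), with 0.68 and 0.31 at its other detected probes. Rragd, the gene of the GTPase RagD, rose by 1.07 ± 0.13 (adjusted p = 9.15e-07). Its difference was 0.74 without background correction and 0.70 with an offset of 50. Another Rragd probe, detected on 2 RI-BPI arrays only, was at least 1.285-fold higher. Castor2, of a family of arginine-sensing proteins that bind GATOR2, fell by 1.47 ± 0.18 (adjusted p = 7.06e-07) and was detected on 2 of 3 RI-BPI arrays, with a difference of -0.88 at an offset of 50. Lamtor2, a subunit of the Ragulator scaffold on the lysosome, fell by 0.88 ± 0.11 (adjusted p = 9.01e-07), with -1.31 and -0.71 at its other probes. The other genes of this route that follow were named after their values were seen. The Ragulator genes Lamtor1 (-0.43 ± 0.11) and Lamtor4 (-0.74 ± 0.12) and the GATOR1 genes Depdc5 (-0.38 ± 0.11) and Nprl3 (-0.37 ± 0.12) also fell. The GATOR1 gene Nprl2 was not called, at -0.25 ± 0.12. Folliculin, Flcn, and its partners Fnip1 and Fnip2, which act on RagC and RagD, rose by 0.57 ± 0.11, 1.03 ± 0.11 and 0.60 ± 0.11. Of the GATOR2 genes, Wdr59 rose by 0.63 ± 0.11 and Mios by 0.52 ± 0.12, Sec13 fell by 0.26 ± 0.11, and Wdr24 was not called, at -0.18 ± 0.11.

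Among AMPK, TSC and mTORC1 genes, the level at which DDIT4 acts, 8 of 22 measured genes rose and 3 fell, and 11 had no call. The share called was 50%, against 61.3% of all genes, of which 30.7% were called higher and 30.6% lower. The median difference was 0.20. Eif4ebp1, the translation repressor 4E-BP1 that mTORC1 phosphorylates, read 779.5, 581.9 and 629.6 with control and 1765, 1665 and 1657 with RI-BPI, and rose by 1.42 ± 0.12 (adjusted p = 5.72e-09). Akt1s1, the mTORC1 inhibitor PRAS40, rose by 0.90 ± 0.11 (adjusted p = 9.67e-07). Tbc1d7, the smallest subunit of the TSC complex, fell by 0.83 ± 0.11 (adjusted p = 2.81e-06). Deptor, an mTOR inhibitor, fell at least 1.22-fold and was below detection on each RI-BPI array. It passed the detection filter on the control arrays alone. Its measured difference was -0.77 (adjusted p = 0.000174), and it was -0.44 without background correction and -0.35 with an offset of 50. Another Deptor probe was detected on 1 control array only and gives no difference. Of the genes named after their values were seen, Tsc1 rose by 0.80 ± 0.11, while Tsc2 (-0.21 ± 0.12) and Mtor (-0.16 ± 0.11) were not called. Rptor, also named after its values were seen, fell by 0.28 ± 0.11 (adjusted p = 0.0365). Without 1 control array, whichever it was, 1 member of this list, Tbc1d7, fell rather than 3. Deptor then did not pass the detection filter, and Rptor was not called.

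The list around ATF4, the transcription factor of the integrated stress response, had 95.2% of its measured genes called, beside 61.3% of all genes. As with the other lists, nothing is read from this share, the highest of the 7. In this list 18 of 21 measured genes rose, 2 fell and 1 had no call, and the median difference was 1.36. Trib3, a pseudokinase induced by ATF4, read 149.4, 159.8 and 160.6 with control and 1731, 2012 and 1689 with RI-BPI, and rose by 3.87 ± 0.12 (adjusted p = 1.23e-15), with 3.45 and 2.44 at its other probes and 3.25 when its probes were averaged. Ppp1r15a, which carries the older name GADD34 but is no relative of the GADD45 genes, rose by 3.25 ± 0.12 (adjusted p = 2.21e-14). Atf4 itself and its partner Ddit3 (CHOP), both named after their values were seen, rose by 1.22 ± 0.13 and 2.89 ± 0.12. Both genes that fell encode kinases of eIF2 alpha. Eif2ak2 (PKR) fell by 0.49 ± 0.11 (adjusted p = 0.000563), and Eif2ak1 (HRI) fell by 0.37 ± 0.12 (adjusted p = 0.00945). The call on Eif2ak1 was lost without control replicate 1 (adjusted p = 0.0611, with a range of 0.0035 to 0.0611 over its 14 alternatives). Ddit4, with 2.07, and Sesn2, with 0.59, stand on either side of the median of this list.

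Targets of p53 moved both ways. Of 19 measured genes 10 rose and 5 fell, and 4 had no call (78.9% called). The median difference was 0.31. The p53 targets Gadd45a, Sesn1 and Sesn2, left out of this list, stood at 3.50, -2.42 and 0.59. Mdm2, the ubiquitin ligase that degrades p53, read 2744, 2749 and 2290 with control and 10950, 9769 and 10260 with RI-BPI, and rose by 2.08 ± 0.11 (adjusted p = 5.73e-12), with 2.34 at another probe. Bbc3, the death gene PUMA, rose by 1.62 ± 0.11 (adjusted p = 5.27e-10), with 0.55 at another detected probe. Phlda3, an inhibitor of AKT, fell by 1.44 ± 0.12 (adjusted p = 3.95e-09) and was detected on 1 of 3 RI-BPI arrays. Its difference was -0.88 without background correction and -0.82 with an offset of 50. Cyclin G1, Ccng1, fell by 1.08 ± 0.11 (adjusted p = 5.26e-08), with -0.86 and -0.61 at other probes. The gene of p53 itself, Trp53, was not among the measured genes.

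In the FoxO list 8 of 16 measured genes rose and 1 fell, while 7 had no call (56.2% called). The median difference was 0.25. Irs2, an insulin receptor substrate, rose by 2.28 ± 0.11 (adjusted p = 1.90e-12) from a level detected on 1 of 3 control arrays. Its difference was between 1.40 and 1.54 without background correction, with an offset of 50 and in the authors' normalized table. The ubiquitin ligase gene Fbxo32, undetected in control, rose at least 2.74-fold (adjusted p = 6.81e-11), and its measured difference of 1.77 was 1.06, 0.94 and 1.10 in those settings. Fbxo32 passed the detection filter on the RI-BPI arrays alone. Another of its probes, detected on 2 RI-BPI arrays only, was at least 1.15-fold higher, and its remaining probe was detected on no array. Klf2, a factor known to restrain myeloid activation, fell by 1.83 ± 0.12 (adjusted p = 1.56e-10). Foxo3 and Foxo1, named after their values were seen, rose by 0.55 ± 0.12 and 0.32 ± 0.12. Foxo3 was dim in control and detected on 2 of 3 control arrays. With detection required on all arrays 5 members rose rather than 8.

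The list around hypoxia and glucocorticoids, both inducers of Ddit4, holds their targets as well as regulators such as Hif1a. In it 9 of 16 measured genes rose and 2 fell, and 5 had no call (68.8% called). The median difference was 0.80. Ndrg1, a hypoxia-induced gene, read 182.7, 197.4 and 181.1 with control and 961.7, 967.6 and 976.1 with RI-BPI, and rose by 2.63 ± 0.11 (adjusted p = 1.36e-13). Klf9, a glucocorticoid-induced factor, rose by 1.78 ± 0.12 (adjusted p = 3.33e-10). Other targets went the other way: the collagen hydroxylase gene P4ha1 fell by 0.82 ± 0.11 (adjusted p = 2.07e-06), and Fkbp5, a co-chaperone of the glucocorticoid receptor and itself a classical target of it, fell by 0.57 ± 0.12 (adjusted p = 0.000385). The genes that follow are named outside the rule, with their values known. Tsc22d3 (GILZ), another glucocorticoid target, was at 0.22 ± 0.11 and Hif1a at -0.23 ± 0.11, neither of them called. The other called increases were Sgk1 (1.47 ± 0.11), Vegfa (1.41 ± 0.11), Ankrd37 (1.01 ± 0.15), Slc2a1 (0.95 ± 0.11), Dusp1 (0.90 ± 0.11), Per1 (0.82 ± 0.12) and Egln3 (0.79 ± 0.12).

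**Figure D3:**
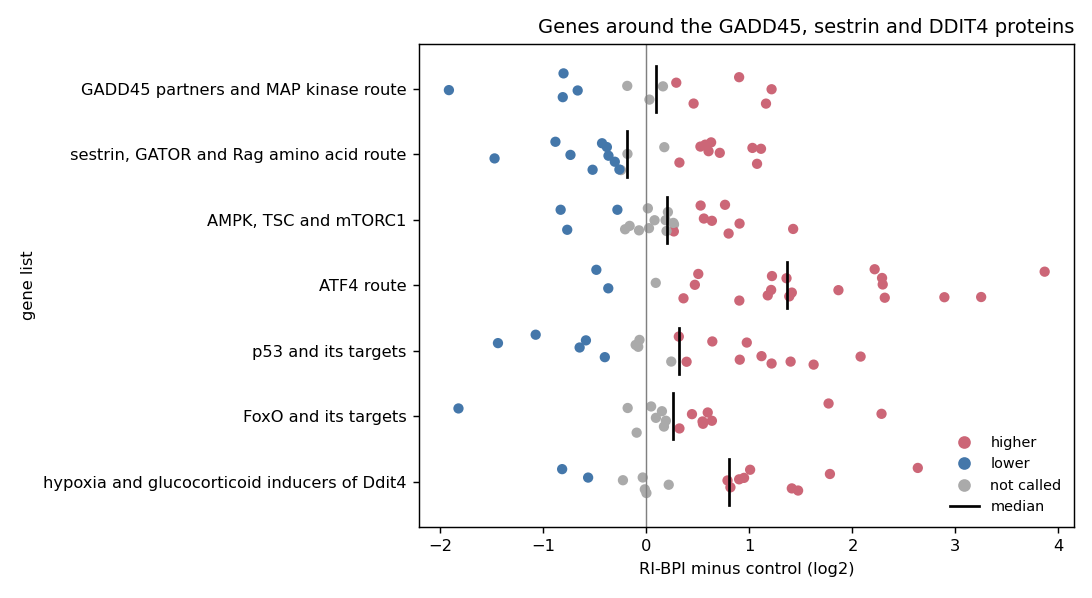
Difference RI-BPI minus control on the log2 scale for each measured gene of the 7 lists, members left out, as 1 point per gene; red points were called higher, blue points lower and grey points were not called at an adjusted p under 0.05, and the black bar is the median. The ATF4 list has its median at 1.36, and that of the sestrin, GATOR and Rag list is -0.18. Points are spread vertically for legibility only.

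Of the 9 macrophage markers with a probe, 8 were detected on all 6 arrays, while Itgam, the gene of CD11b, was detected on the 3 control arrays and on no RI-BPI array. The summed signal of the marker probes was 49440 to 54650 with control and 43390 to 49280 with RI-BPI. The markers are named outside the rule, with their values known. Of the 9 genes Cd200r1 rose (0.52 ± 0.13), and the Fc receptor gene Fcgr1 (-1.73 ± 0.11), the F4/80 gene Adgre1 (-0.86 ± 0.12), Mertk (-0.74 ± 0.11) and Itgam (at least 1.62-fold) fell, whereas Csf1r (-0.09 ± 0.11) and Lyz2 (-0.04 ± 0.10) were not called, and Spi1 and Cd14 were not called either. For neutrophils and their precursors 8 of 9 markers with a probe were detected on no array, for lymphocytes 6 of 7, for dendritic cells 5 of 7, for fibroblasts and stroma 7 of 8, and for erythroid and mast cells 4 of 5. The 1 measured gene of each of these lists was S100a8, at 0.36 ± 0.11, Cd79b, undetected with RI-BPI and at least 1.15-fold lower, Bst2, at -0.67 ± 0.23, Acta2, at 0.05 ± 0.11, and Kit, undetected in control and at least 1.81-fold higher. Summed signals of the marker probes ran from 729.3 to 742.4 with control and 801.6 to 840.9 with RI-BPI for neutrophils, from 325.0 to 337.9 and 317.4 to 332.3 for lymphocytes, from 737.1 to 1053 and 551.5 to 909.3 for dendritic cells, from 466.2 to 474.1 and 461.5 to 468.7 for fibroblasts, and from 207.8 to 228.6 and 257.5 to 262.1 for erythroid and mast cells. The part of these cells in the differences of the member genes was not tested. Between 13866 and 14357 probes were detected per control array and between 12931 and 13843 per RI-BPI array, and arrays correlated across genes at r = 0.992 to 0.996 within a peptide and at 0.945 to 0.948 between peptides.

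**Figure D4:**
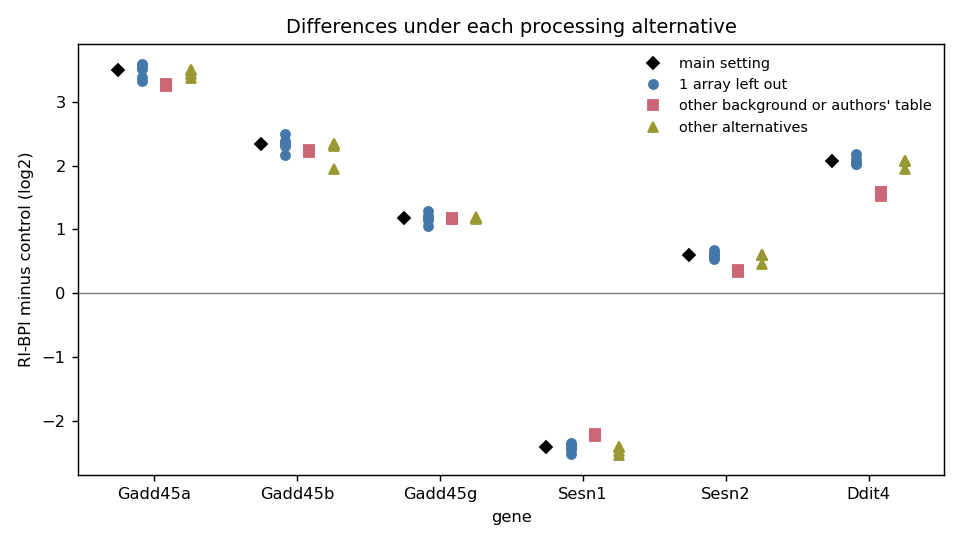
Difference RI-BPI minus control on the log2 scale at each member gene with a detected probe, in the main setting (black), with 1 array left out (blue), with another background treatment or the authors' normalized table (red) and in the other alternatives (olive). The sign is the same in every one of the 14 alternatives for all 6 genes; Ddit4 moves from 2.07 to between 1.52 and 1.59 with another background, and Sesn2 from 0.59 to between 0.33 and 0.37.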

How the data were processed

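Total RNA was labelled as biotin cRNA with an Ambion MessageAmp kit and read on Illumina bead arrays, per the labels' protocols. The authors deposited mean bead intensity per probe and array, not normalized per the file headers, with a detection p-value, the bead standard error and a count of beads for each. The authors also deposited normalized intensity values on a linear scale, made by a method not given in the sources used here. The submitters' processing notes name GenomeStudio. The number of arrays and the bead error limit the precision.

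Background was corrected with normexp from the detection p-values (offset 16), followed by quantile normalization and log2, with limma 3.58.1 in R 4.3.3. Probes were kept if detected at p under 0.01 on at least 3 of 6 arrays. The brightest kept probe stood for a gene (8205 genes), and lmFit and eBayes compared the peptides (4 residual degrees of freedom before moderation). For member probes the standard error comes from the same fit over all 12191 kept probes. Where a group was undetected on all its arrays, "at least N-fold" is the detected group's mean against a floor for the other group: on each array the larger of the probe's own level and the lowest level of any detected probe, averaged. The offset pulls changes of dim probes towards 0.

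The members, gene lists and motifs were chosen with earlier results of these data known. The rule for named genes takes every member probe, up to 2 called increases and 2 called decreases of largest size per list, and the 2 genes nearest to each member with predicted or clone-based names left out; others are marked. Alternatives were median centring, no background correction, an offset of 50, the authors' normalized table (values under 16 set to 16), no filter, detection on all arrays, the mean of all kept probes, the replicate number as a block, and leaving out each array. Deviations of arrays with the same replicate number correlated at 0.00 to 0.03, so the numbers were not taken as pairs. Promoter windows were searched on both strands.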

Additional observations from a re-analysis of the deposited data

How the results depend on the processing

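All 6 measured member genes kept their sign in the 14 alternatives, with log2 differences of 3.24 to 3.60 for Gadd45a, 1.95 to 2.50 for Gadd45b, 1.06 to 1.28 for Gadd45g, -2.54 to -2.21 for Sesn1, 0.33 to 0.67 for Sesn2 and 1.52 to 2.18 for Ddit4. The count of members at least 1.5-fold higher was 4 rather than 5 with median centring, no background correction, an offset of 50, the authors' normalized table, and when either control replicate 2 or RI-BPI replicate 2 was left out, as Sesn2 lies at that limit. Over all genes 1988 to 2533 were called higher and 2095 to 2807 lower, and of the list genes 80 to 91 were called. With median centring 3 genes of the GADD45 partner list rose, and with detection on all arrays, which leaves 7253 genes, 5 of the FoxO list. Leaving out 1 array, 1 to 3 genes of the AMPK, TSC and mTORC1 list fell, with 1 in each fit lacking a control array. Deptor did not pass the detection filter in the fits lacking a control array, and Rptor was not called in them. Of the ATF4 list 1 to 2 genes fell, with 1 in the fit that left out control replicate 1. In all fits that leave out an array fewer arrays are compared. The named list genes kept sign and call in 365 of 366 values, with 12 more not measured under the filter; Eif2ak1 was the exception, with adjusted p-values from 0.0035 to 0.0611. With the replicate block 2533 genes were called higher and 2527 lower, 9 rather than 8 genes of the AMPK, TSC and mTORC1 list rose, and no member count changed. Of these genes Irs2, Fbxo32, Phlda3, Castor2 and Trib3 moved by over 1.5-fold in at least 1 alternative, as given with their values above. Undetected probes limit Sesn3 and most probes of Sesn2.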
